A study of Mus musculus with 12 samples.

Results

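The effect of a human APOA1 transgene on the livers of chow-fed mice was read from 6 RNA-seq libraries, 2 with the transgene and 4 without it. All 6 came from mice in which both apolipoprotein A-I and apolipoprotein E had been knocked out (Apoa1-/- Apoe-/-, DKO), and the transgenic mice (DKO/hA1) carried human APOA1 on that same background. The mice had eaten standard laboratory chow for 22 weeks. A further 6 libraries from the same 2 genotypes on a high-fat Western diet, 3 each for DKO and DKO/hA1, entered the model as well and are used here as a second reading of the transgene. The labels name neither the promoter of the transgene nor the transgenic line, give no age beyond the time on diet, and do not say whether libraries came from littermates. Of 23284 genes listed, 11104 reached 1 FPKM (fragments scaled to transcript length and to the number mapped) in at least 2 of the 6 chow libraries and were not at 0 throughout a chow group. Of these, 11047 were tested, 57 small RNA genes were not tested, 29 were left out for zeros throughout one chow group, and 12151 lay below the level. The gene 2310014L17Rik stood just inside that level, with a second-highest chow value of 1.0002 FPKM, and Phlpp2 just outside it at 0.9995 FPKM.

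Most of the protein of high-density lipoprotein (HDL) is apolipoprotein A-I. Made by liver and intestine, it takes up cholesterol exported from cells and activates the enzyme that esterifies it, so that HDL can carry cholesterol back to the liver for excretion in bile. Mice without apolipoprotein E accumulate remnant lipoproteins in plasma, and human APOA1 transgenes have long been used in such mice to raise HDL.

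Log2 levels correlated across genes at 0.955 to 0.98 within DKO chow, at 0.981 between both DKO/hA1 chow libraries, and at 0.958 to 0.979 between the groups. Relative depth, estimated from the spacing of low values, lay between 0.525 and 1.09 of that of DKO chow 1. Hepatocyte genes were abundant throughout (Serpina1a at 2656 to 3104 FPKM, Ttr at 2209 to 3414), whereas Alb was listed at 0 in all 6 chow libraries. Some libraries stood apart. In genes of the circadian clock, the mean log2 level of 10 output genes of the Dbp arm was 4.27 and 4.17 in DKO chow 1 and 2, but 1.82 and 2.04 in DKO chow 3 and 4 and 2.07 and 1.93 in DKO/hA1 chow. In non-parenchymal genes, the mean of 16 endothelial markers was 2.52 in DKO chow 2 and 2.34 in DKO/hA1 chow 2, against 3.49 to 3.67 in the other chow libraries. The intestinal defensin gene Defa24 reached 59.7 FPKM in DKO chow 4 and 24.3 FPKM in DKO/hA1 chow 1, had 6.73 and 2.02 FPKM in DKO chow 1 and 3, and was listed at 0 in DKO chow 2 and DKO/hA1 chow 2. The mean of all 8 intestine genes was highest in DKO chow 4 (4.13) and DKO chow 1 (2.66), with DKO/hA1 chow 1 at 2.47, so DKO chow 4 and DKO/hA1 chow 1 form a pair by Defa24 and not by that mean. The list had a median log2 fold change of -0.78, with 7 of 8 members negative, among them Apoa4 (-0.99 ± 0.70) and the gut lectin Reg3b (-1.38 ± 2.14). That median was -0.16 without DKO chow 4, -0.08 without DKO/hA1 chow 2 and -1.17 without DKO/hA1 chow 1. In whole-liver RNA, fewer cells of a type and less RNA per cell cannot be told apart. 

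The table itself also sets the chow groups apart. In both DKO/hA1 chow libraries 17 rows were above 0 that were at 0 in all 10 other libraries. Counted by symbol alone, 14 of them were Mup genes. The others were Gm2083 (631 and 688 FPKM), LOC100048884 (179 and 67.1 FPKM) and the small RNA Mir1981. Rn45s, the precursor of ribosomal RNA, was at 0 in all 4 DKO chow libraries and at 166 to 589.9 FPKM in the 8 others. Whether groups were quantified in separate runs is not given in the sources used here, so for every chow result an effect of the transgene and a difference in processing cannot be told apart within the chow libraries.

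**Figure D1:**
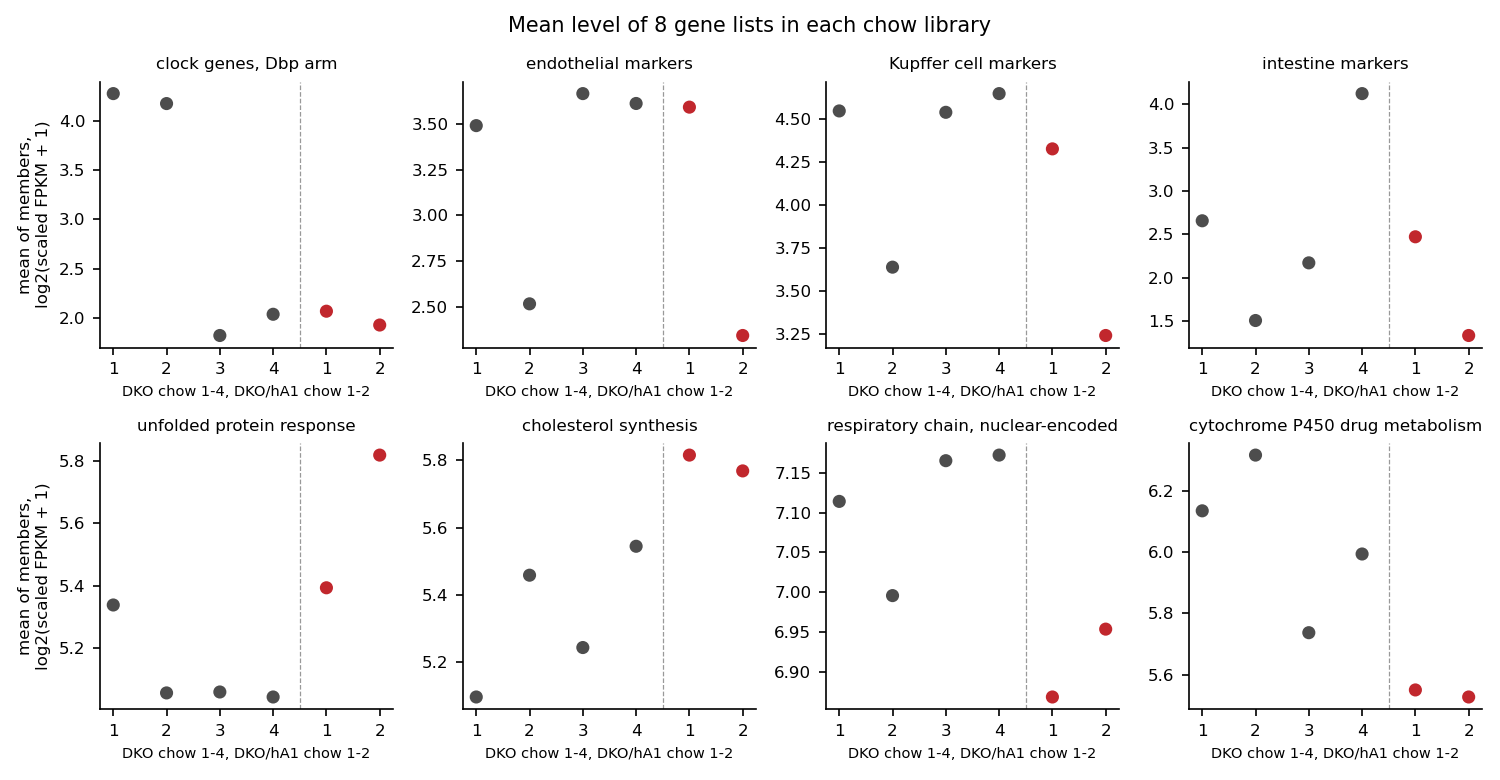
Mean level, as log2(scaled FPKM + 1), of 8 gene lists in the 4 DKO chow libraries (grey) and the 2 DKO/hA1 chow libraries (red), with a separate vertical range for each panel. DKO chow 1 and 2 are high for the Dbp arm of the clock, and DKO chow 2 and DKO/hA1 chow 2 are low for endothelial and Kupffer cell markers.

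The targeted genes were read first. Apoa1 (chromosome 9, 46228630 to 46230469, mouse build GRCm38) stood at 38.1, 30.4, 46.1 and 47.0 FPKM in the DKO chow libraries and at 217 and 236 FPKM in DKO/hA1 chow. Its group means were 40.4 ± 7.78 (SD, n = 4) and 227 ± 13.6 (SD, n = 2) FPKM, a 5.62-fold difference, and no library overlapped with the other group (exact permutation p = 0.0667, two-sided, the smallest that 15 groupings allow). The log2 fold change was 2.46 ± 0.29 (limma adjusted p = 0.00676). The ± after a log2 fold change is its SE throughout. Apoa1 no longer passed without either transgenic chow library (adjusted p = 0.12 and 0.163). The table has no row for human APOA1, so reads of the transgene and of any remaining mouse transcript cannot be told apart. Apoe (chromosome 7, 19696244 to 19701310) was above 0 in every chow library. It stood at 30.0, 47.2, 38.5 and 47.6 FPKM in DKO chow and at 40.1 and 12.9 FPKM in DKO/hA1 chow (exact permutation p = 0.267). The groups overlapped, with one transgenic library inside the DKO range and the other below it.

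Only 9 of the 11047 genes (0.0815%) passed an adjusted p below 0.05 on chow, 6 of them higher (0.0543%) and 3 lower (0.0272%) in the transgenic livers. With library totals set equal they were 7 and 2. At an unadjusted p below 0.05 there were 841 genes (7.61%), 435 higher (3.94%) and 406 lower (3.68%), and 167 genes differed at least 2-fold. The chow groups did not overlap for 1200 genes that were higher with the transgene (10.9%) and 1229 that were lower (11.1%). The median log2 fold change over all genes was 0.000409, and 50.1% were positive. Nothing in the labels says that libraries of a group came from separate animals, so the p-values measure only the spread between these samples, which may be technical.

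Besides Apoa1, 5 genes rose with the transgene. Gpr110 (Adgrf1 in RefSeq, chromosome 17, 43270283 to 43325876), an adhesion G protein-coupled receptor, was at 2.08, 2.09, 2.29 and 2.01 FPKM in DKO chow and at 6.64 and 5.70 FPKM in DKO/hA1 chow. Both transgenic values were above the narrow DKO range, and the rise was 1.18 ± 0.12 (adjusted p = 0.00241). Gm17746, a long noncoding RNA on chromosome 12 (25129174 to 25132274), was nearly silent in DKO chow at 0.0649, 0, 0.132 and 0.0816 FPKM. In DKO/hA1 chow it reached 3.61 and 2.33 FPKM, a rise of 1.88 ± 0.19 (adjusted p = 0.00211).

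Tox2, which encodes an HMG-box nuclear protein, was at 0.0982, 0.0955, 0.349 and 0.494 FPKM in DKO chow and at 1.76 and 2.16 FPKM in DKO/hA1 chow, a rise of 1.24 ± 0.18 (adjusted p = 0.033). Synj2, an inositol phosphatase of membrane trafficking, went from 1.14, 0.499, 0.712 and 0.641 FPKM to 2.88 and 2.56 FPKM (1.09 ± 0.16, adjusted p = 0.0287). Gprc5b, an orphan receptor, went from 0.113, 0.0325, 0.0849 and 0.147 FPKM to 1.09 and 1.16 FPKM (0.96 ± 0.13, adjusted p = 0.0216). These 3 genes lay below or near 1 FPKM in DKO livers, where adding 1 before the log2 makes a fold change smaller than the ratio of the means, which was 7.56 for Tox2, 3.64 for Synj2 and 11.9 for Gprc5b. With 0.1 added instead, Gm17746, Tox2, Gpr110, Synj2 and Gprc5b no longer passed. Each stayed higher with the transgene there. Gm17746, Tox2 and Gprc5b reached 1 FPKM in no DKO chow library, so they were tested only because both transgenic libraries were high. Synj2 reached it in 1 DKO chow library and was tested only because a transgenic library was high too. The passing of these 4 genes is to be read with that. They also passed without a filter on level, among 15852 genes. Tox2 passed under 12 of 27 settings, Synj2 under 13, Gprc5b under 17 and Gm17746 under 24 of 27, and Gpr110 under 23 of 28; without DKO/hA1 chow 1 none of these 5 passed.

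Dio1 (chromosome 4, 107291465 to 107307168), the liver deiodinase that activates thyroxine and clears reverse triiodothyronine, fell. It was at 85.6, 57.6, 58.5 and 64.7 FPKM in DKO chow and at 17.7 and 26.3 FPKM in DKO/hA1 chow, a ratio of 3.02 between the group means. The log2 fold change was -1.58 ± 0.23 (adjusted p = 0.0287). Dio1 passed under 13 of the 28 settings tried, and its log2 fold change ranged from -1.90 to -1.31 over them. Without DKO/hA1 chow 1 its adjusted p was 0.362, and without DKO/hA1 chow 2 it was 0.1.

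The other 2 genes that fell are given as uncertain. Mup5, of a family with near-identical copies, is a major urinary protein (a pheromone carrier secreted by the liver). It was at 3048, 981, 2149 and 1385 FPKM in DKO chow and at 2.70 and 2.84 FPKM in DKO/hA1 chow (-8.87 ± 0.74, adjusted p = 0.000946). In the same 2 libraries, 14 other Mup rows that were at 0 in all 4 DKO chow libraries summed to 13802 and 17012 FPKM. Those 14 rows were also at 0 in all 6 Western diet libraries. Summed over all 20 rows with a Mup symbol, the level was 12923 to 18558 FPKM in DKO chow and 24173 and 32635 FPKM in DKO/hA1 chow. Rpl35, a protein of the large ribosomal subunit, was at 145, 126, 166.5 and 161 FPKM in DKO chow and at 1.296 and 0.284 FPKM in DKO/hA1 chow (-6.47 ± 0.20, adjusted p = 1.81e-08). The 10 libraries outside DKO/hA1 chow held 126 to 191 FPKM, and among 79 ribosomal protein genes tested the median log2 fold change was 0.02. Rpl34 stood lowest of the other ribosomal protein genes at -0.61 ± 0.65, with overlap. Mup6 was at 53.7, 32.9, 50.4 and 38.2 FPKM in DKO chow and at 3.68 and 5.58 FPKM in DKO/hA1 chow (-3.01 ± 0.57, adjusted p = 0.129). How reads were shared among copies was not tested.

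**Figure D2:**
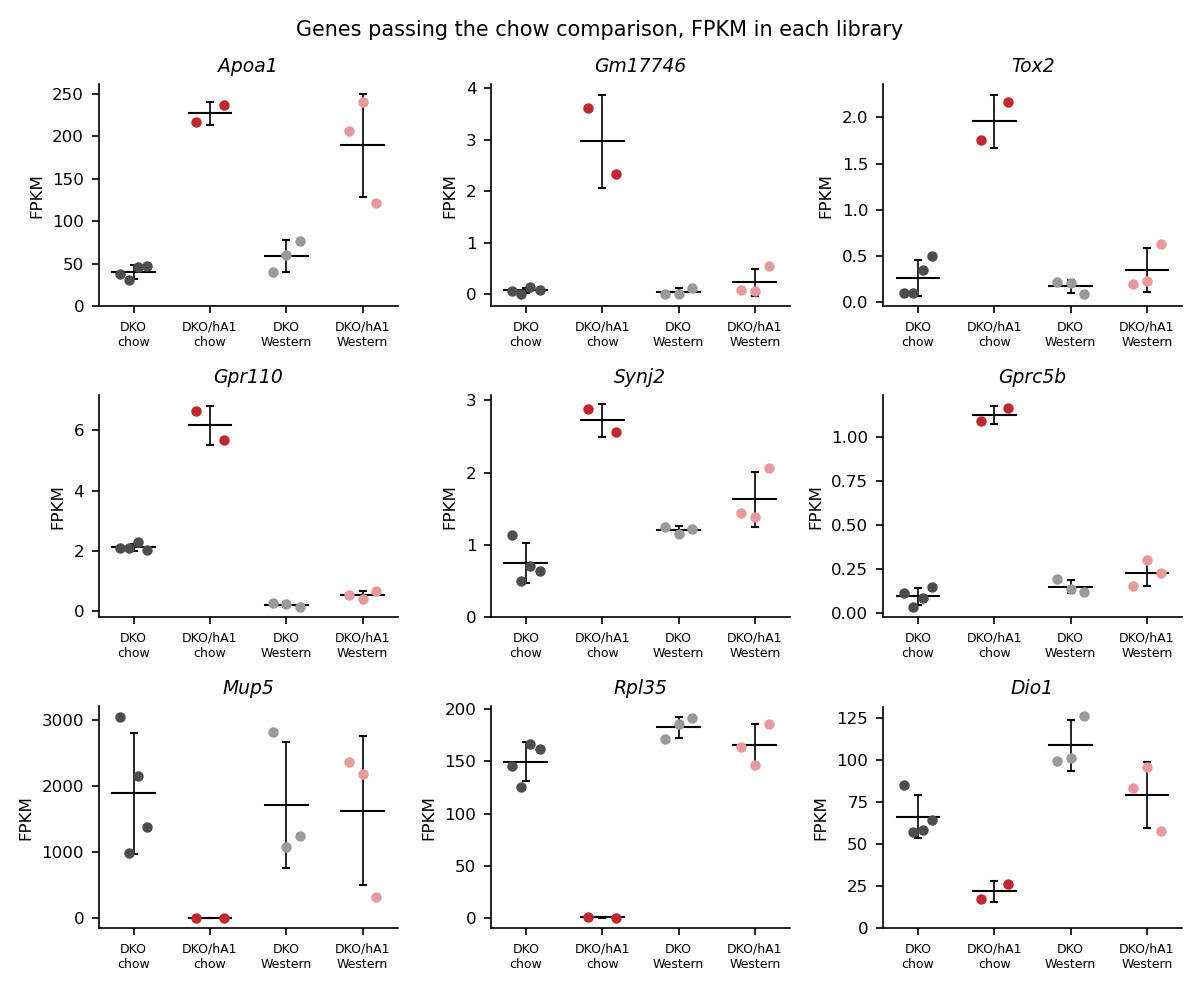
FPKM in each library (points) with the group mean (bar) and SD (whisker) for the 9 genes that passed on chow, in 4 groups of 4, 2, 3 and 3 libraries. The DKO/hA1 chow libraries lie apart from DKO chow in every panel, and from the Western diet libraries in every panel except that of Apoa1.

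**Figure D3:**
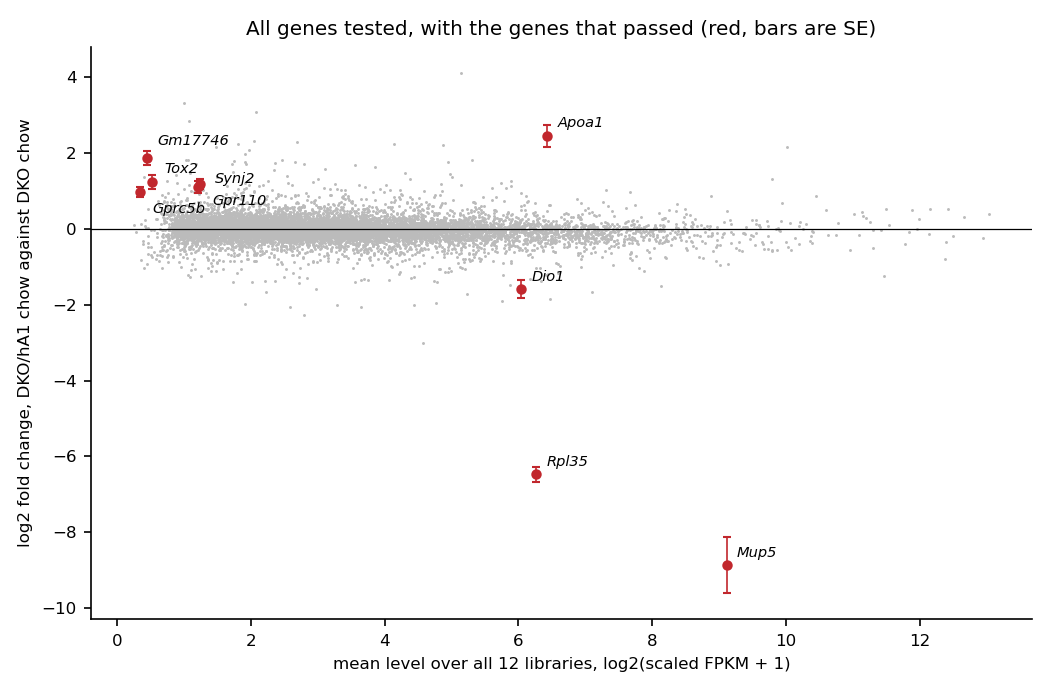
Log2 fold change on chow (vertical axis) against mean level over all 12 libraries (horizontal axis) for the 11047 genes tested, with the 9 that passed in red and their SE as bars. Of the red genes, 6 lie above 0, 5 of them at low levels, and Rpl35 and Mup5 lie far below every other gene.

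The next genes by p did not pass. S100g, a calcium-binding protein, was at 0.452, 0, 0 and 0 FPKM in DKO chow and at 7.93 and 12.2 FPKM in DKO/hA1 chow (3.31 ± 0.53, adjusted p = 0.0633). It lay below 1 FPKM in every DKO chow library, so it was tested only because both transgenic libraries were high. Ppp1r13b, a regulator of p53-dependent apoptosis, was at 2.69 to 3.47 FPKM and at 5.87 and 5.48 FPKM (0.66 ± 0.11, adjusted p = 0.054). On the lower side, Angptl4, a secreted inhibitor of lipoprotein lipase, stood at 39.9, 35.5, 72.3 and 24.8 FPKM in DKO chow and at 7.30 and 12.7 FPKM in DKO/hA1 chow (-1.97 ± 0.36, adjusted p = 0.126). Lpl, the lipase itself and chosen after its values were seen, was at 9.87, 5.48, 9.09 and 10.6 FPKM and at 21.6 and 16.04 FPKM (1.02 ± 0.32, adjusted p = 0.416). For both genes the groups did not overlap. BC048355 (-1.04 ± 0.17), 1810063B05Rik (Coa6, an assembly factor of cytochrome c oxidase, -0.70 ± 0.13), 9530008L14Rik (Adtrp, -0.67 ± 0.12) and Cyp2d40 (-0.91 ± 0.17) had adjusted p of 0.0633, 0.112, 0.112 and 0.126.

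The Western diet libraries give the transgene difference in libraries that the chow contrast does not contain. None of the 11047 genes passed there with limma (0%), against 593 at an unadjusted p below 0.05 (5.37%). Apoa1 was again higher, at 206, 240 and 122 FPKM against 40.2, 60.6 and 77.4 FPKM (1.69 ± 0.27, adjusted p = 0.345). Gpr110 was at 0.530, 0.384 and 0.667 FPKM against 0.263, 0.225 and 0.119 FPKM (0.35 ± 0.12, unadjusted p = 0.0119), without overlap but at a level below that on chow. For Dio1 the difference was -0.44 ± 0.21, for Synj2 0.27 ± 0.15, for Gm17746 0.22 ± 0.18, for Tox2 0.20 ± 0.17 and for Gprc5b 0.10 ± 0.12. The difference between the diets was tested as an interaction, which 2 genes passed (0.0181%), Mup5 (-8.52 ± 1.01, adjusted p = 0.0297) and Rpl35 (-6.37 ± 0.28, adjusted p = 7.87e-07). For Gm17746 the interaction had an adjusted p of 0.162, for Gpr110 and Gprc5b 0.62, for Tox2 0.944, and for Apoa1, Synj2 and Dio1 0.963.

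Across all genes, 53.4% of 11046 had the same sign on both diets, and among the 841 with an unadjusted p below 0.05 on chow 559 did (66.5%). Below 0.05 on both diets were 93 genes, of which 79 (84.9%) went the same way. The diets share no library but do share one variance estimate. The genes named in this paragraph were chosen after their values were seen, and apart from Apoa1 and Gpr110 none passed the adjusted threshold on chow. Nupr1, a stress-induced nuclear protein, was at 1.20, 0.996, 0.347 and 1.72 FPKM in DKO chow and at 11.5 and 22.6 FPKM in DKO/hA1 chow (3.09 ± 0.52, adjusted p = 0.102). On Western diet it was at 1.12, 0.526 and 1.24 FPKM against 3.45, 8.60 and 20.4 FPKM (2.35 ± 0.49). No library of one genotype reached the range of the other on either diet. The matrix protein Smoc2 (1.21 ± 0.22 on chow, 1.07 ± 0.21 on Western diet), the collagen-binding Dpt (0.86 ± 0.20 and 0.89 ± 0.19) and the desaturase Scd2 (1.22 ± 0.22 and 0.66 ± 0.21) were likewise higher on both. Scarb1, the hepatic HDL receptor, was lower on both (-0.35 ± 0.14 and -0.33 ± 0.13). Csad, an enzyme of taurine synthesis, was among the 14 of opposite sign, at 1.14 ± 0.41 on chow and -1.24 ± 0.39 on Western diet, with an interaction adjusted p of 0.944.

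**Figure D4:**
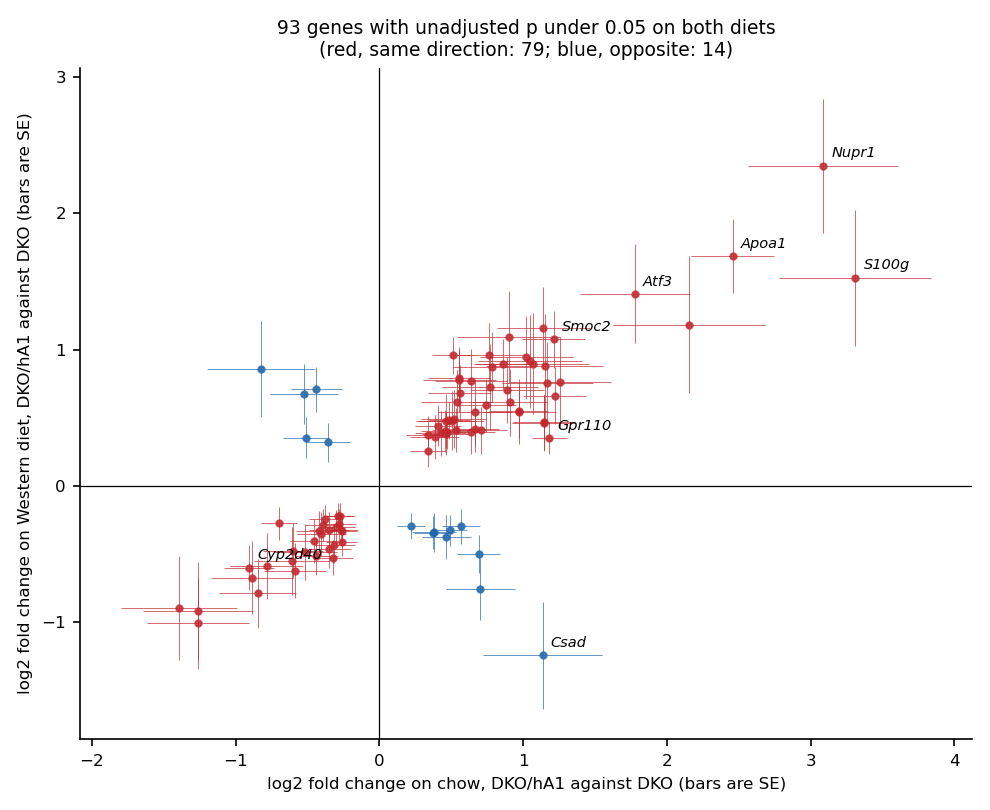
Log2 fold change for the transgene on chow (horizontal) and on Western diet (vertical), each with its SE, for the 93 genes with an unadjusted p below 0.05 on both diets. In red are the 79 genes of the same direction and in blue the 14 of opposite direction, of which Csad lies farthest out.

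The remaining results describe gene lists by counts and medians. Apart from Apoa1, Dio1, Mup5 and Rpl35, no list member passed the adjusted threshold, and each count without overlap is to be read against the 10.9% and 11.1% over all genes. Besides the 2 members of each list with the widest log2 fold change, members were picked for mention after their values were seen.

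Of 22 HDL apolipoprotein and remodelling genes tested besides Apoa1, 7 were positive and 15 negative, with a median of -0.21. Without overlap, 2 lay higher (9.09%) and 6 lower (27.3%). With Apoa1 included the median was -0.19, and against the clock-matched DKO chow 3 and 4 it was -0.08. DKO chow 3 and 4 were so named after seeing the data, by their level of Dbp-arm genes alone. Apoa4, another HDL apolipoprotein, was at 45.0, 56.5, 42.9 and 176 FPKM in DKO chow and at 31.0 and 36.0 FPKM in DKO/hA1 chow (-0.99 ± 0.70). The sterol exporter Abca1, which loads cholesterol onto apolipoprotein A-I, had 0.38 ± 0.16 (unadjusted p = 0.0341, without overlap). Scarb1 stood at -0.35 ± 0.14, the hepatic lipase gene Lipc at -0.54 ± 0.23 and the HDL-bound esterase gene Pon1 at -0.50 ± 0.21. Lcat, the esterifying enzyme that apolipoprotein A-I activates, had -0.05 ± 0.20. The 14 genes of apoB lipoproteins and LDL uptake had a median of -0.02, and 15 genes of LXR and sterol export a median of -0.02. In the latter list Npc1, which exports cholesterol from lysosomes, had -0.52 ± 0.24, and Mylip, which targets the LDL receptor for degradation, -0.51 ± 0.33.

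Cholesterol synthesis stood higher with the transgene on chow. Of its 21 enzymes, 18 were positive and 13 did not overlap (61.9%), with a median log2 fold change of 0.50. Hmgcs1, which makes the precursor of mevalonate, was at 54.2, 93.4, 119.7 and 165.8 FPKM in DKO chow and at 191 and 203.5 FPKM in DKO/hA1 chow (0.95 ± 0.56). Lss, which closes the sterol ring, was at 11.7, 14.1, 14.2 and 19.3 FPKM and at 35.9 and 25.0 FPKM (0.97 ± 0.37, unadjusted p = 0.025). DKO chow values were themselves spread, lowest in the first library and highest in the fourth for both genes. On Western diet the same 21 genes had a median of -0.39. The medians were 0.40 to 0.51 on chow under 3 alternatives that left out pairs of libraries (the clock, Defa24 and endothelial pairs). The 10 genes of SREBP2 control, which senses sterols and drives these enzymes, had a median of 0.07.

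In fatty acid and triglyceride synthesis, 10 of 25 genes lay above DKO chow without overlap (40%) and 1 below (4%), with a median of 0.32 (0.21 without DKO chow 4 and DKO/hA1 chow 1). On Western diet the median of these genes was -0.04. Scd1, the main liver desaturase, was at 521, 542, 603 and 254 FPKM in DKO chow and at 2190 and 1927 FPKM in DKO/hA1 chow (2.15 ± 0.64, adjusted p = 0.376). Pnpla3, a lipid droplet hydrolase, was at 0.0933, 0, 0.142 and 0.137 FPKM and at 6.26 and 1.07 FPKM (1.83 ± 0.76). Both genes were apart from every DKO chow library, and Pnpla3 differed between the transgenic libraries. Pnpla3 lay below 1 FPKM in every DKO chow library and was tested only because both transgenic libraries were high, which bears on its place among the 10. Dgat2, which completes triglycerides, was the gene below (-0.62 ± 0.19), and Srebf1, their transcriptional driver, had -0.07 ± 0.41. Fabp5, a fatty acid carrier of the list of lipid droplets and fatty acid uptake, was at 22.0, 8.09, 15.6 and 14.5 FPKM and at 74.3 and 66.3 FPKM (2.20 ± 0.68, adjusted p = 0.416). In the same list G0s2, an inhibitor of triglyceride breakdown, had -1.38 ± 0.81.

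Fatty acid oxidation stood lower. Of 33 genes, 28 were negative, with a median of -0.32. Without overlap, 19 lay lower (57.6%) and 1 higher (3.03%), Fgf21. Ppara, the nuclear receptor that drives this programme in fasting, had -1.02 ± 0.34 (unadjusted p = 0.0117). Fgf21, a fasting hormone and Ppara target, went the other way, at 0.292, 0.567, 1.78 and 0.489 FPKM and at 3.04 and 6.84 FPKM (1.72 ± 0.40, adjusted p = 0.257). Of the DKO chow libraries, DKO chow 3 alone reached 1 FPKM, so Fgf21 was tested only because a transgenic library was high too. Cyp4a10, another Ppara target, had -1.02 ± 1.15. All 44 nuclear-encoded respiratory chain genes were negative, 18 without overlap (40.9%), at a median of -0.19, with Ndufa7 at 76.0 to 88.9 and 66.9 and 67.9 FPKM and Ndufa8 at 90.2 to 102 and 78.0 and 77.8 FPKM. With totals set equal, which moved the median of all genes to 0.05, the fatty acid oxidation median was -0.26 and the respiratory chain median -0.13. On Western diet the median was -0.13 for fatty acid oxidation and -0.07 for the respiratory chain.

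Cytochrome P450 genes mostly stood lower. Of 34 cytochrome P450 and regulator genes, 30 were negative and 15 did not overlap (44.1%), with a median of -0.36. On Western diet the median of these genes was 0.01. Cyp2c54 was at 153, 202, 112.5 and 144 FPKM in DKO chow and at 40.3 and 42.0 FPKM in DKO/hA1 chow (-1.86 ± 0.47, adjusted p = 0.311), and Cyp2c37 had -1.66 ± 0.54. Cyp2c54, Cyp2c37 and Cyp2c55 belong to a family of close copies and are uncertain for that reason. Nr1i3, the xenobiotic receptor CAR, had -1.48 ± 0.43. Among 39 conjugating enzymes the median was -0.07, with 8 higher and 8 lower without overlap (20.5% each), among them the glutathione transferase Gsta1 (1.71 ± 0.47) and the sulfotransferase Sult5a1 (-1.58 ± 0.53). Of 18 genes of bile acid synthesis and the FXR axis, 14 were negative, with a median of -0.31 that was -0.20 against clock-matched libraries. Without overlap, 8 lay lower (44.4%) and 2 higher (11.1%), Cyp39a1 and Fgfr4. Cyp8b1, which makes cholic acid, was at 131, 152, 179 and 149.5 FPKM and at 76.4 and 48.5 FPKM (-1.33 ± 0.81). Cyp7a1, the rate-limiting enzyme of bile acid synthesis, was at 52.1 and 155 FPKM in DKO chow 1 and 2 but at 10.6 and 7.31 in DKO chow 3 and 4, against 12.2 and 15.2 FPKM with the transgene. Its log2 fold change of -1.05 ± 1.02 became 0.57 against the clock-matched DKO chow 3 and 4 alone. Among 19 transporters of bile acids and organic anions, 5 lay higher (26.3%) and 8 lower (42.1%) without overlap, with a median of -0.27 that was -0.16 without DKO chow 2 or DKO/hA1 chow 2 and -0.0047 without both. Slc22a7, an organic anion carrier, had -2.01 ± 0.50, and Slc10a1, the hepatocyte bile acid importer, -1.13 ± 0.29. Slc10a2, its intestinal and bile duct relative, was at 5.12, 10.9, 4.74 and 4.46 FPKM and at 21.3 and 21.9 FPKM (1.69 ± 0.48, adjusted p = 0.37).

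**Figure D5:**
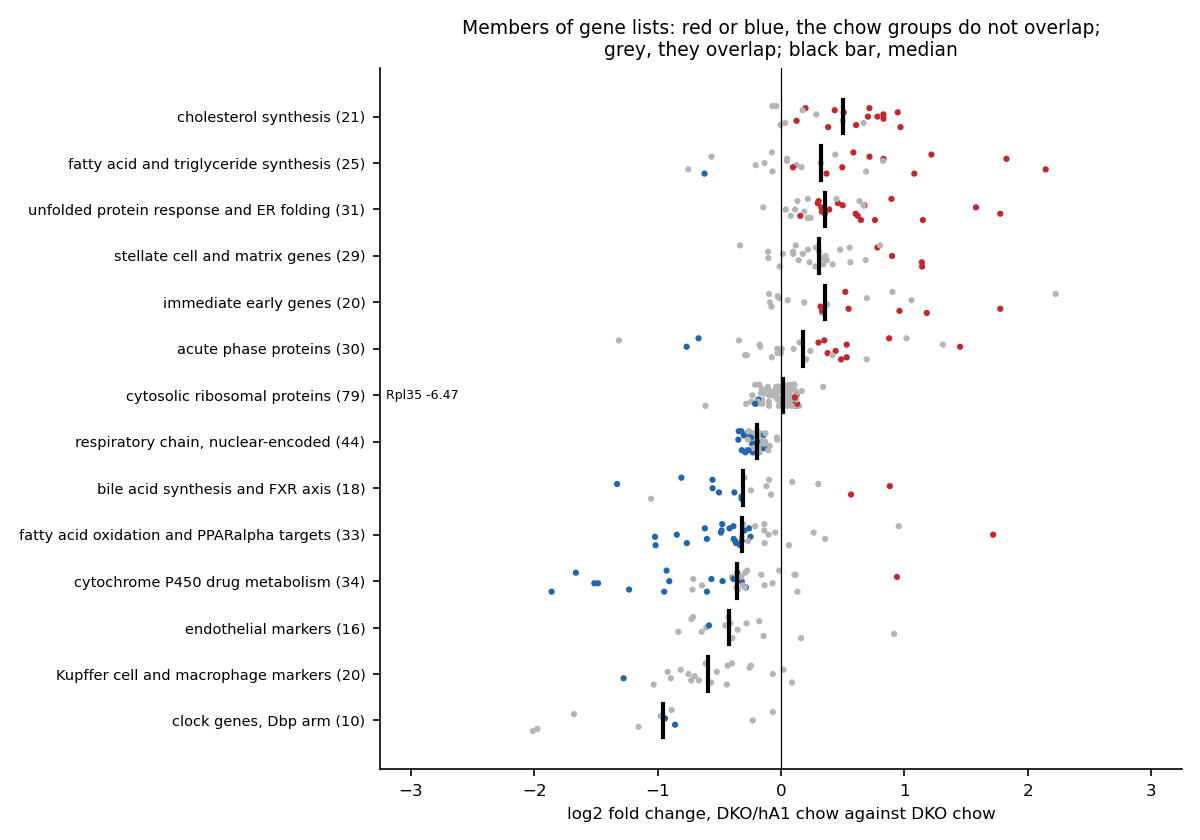
Log2 fold change on chow of each tested member of 14 gene lists, with the number tested in parentheses. Coloured points are genes whose groups do not overlap, grey points those that overlap, black bars the list medians, which run from 0.50 in cholesterol synthesis to -0.96 in the Dbp arm of the clock; Rpl35 lies outside the range drawn.

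Genes of the unfolded protein response stood higher on chow. This response is triggered when unfolded proteins build up in the endoplasmic reticulum (ER). It raises chaperones through ATF6 and XBP1, and through ATF4 genes of amino acid supply and stress. Of 31 genes tested, 30 were positive and 18 did not overlap (58.1%), with a median of 0.36, and 5 had an unadjusted p below 0.05. Their mean log2 level was 5.06, 5.06 and 5.05 in DKO chow 2, 3 and 4 and 5.34 in DKO chow 1, against 5.39 and 5.82 in DKO/hA1 chow 1 and 2. Without DKO/hA1 chow 1 the median of the unfolded protein response was 0.62, without DKO/hA1 chow 2 it was 0.24, and on Western diet it was -0.09.

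The ER stress element, CCAAT followed by 9 bases of any kind and then CCACG, is the sequence at which ATF6 with NF-Y acts in chaperone promoters. It was sought on both strands in windows of 250 bases before to 50 bases after the start of each gene in RefSeq (GRCm38.p6). The element holds a CCAAT box, and no other motif was searched. It was present in 8 of the 28 list members with such a window (28.6%) and in 37 of all 27025 genes (0.137%), or 39 of 32851 windows (0.119%). Because the element is one of chaperone promoters and the list holds chaperones, the higher share in the list is not a test. A match is a description of sequence only. The windows of 3 chaperone or co-chaperone genes that carry the element, chosen after values were seen, are shown with the element in capitals on either strand. Hspa5 and Creld2 hold 1 match each and Hsp90b1 holds 2.
Hspa5 (chr2:34771840-34772139, plus strand): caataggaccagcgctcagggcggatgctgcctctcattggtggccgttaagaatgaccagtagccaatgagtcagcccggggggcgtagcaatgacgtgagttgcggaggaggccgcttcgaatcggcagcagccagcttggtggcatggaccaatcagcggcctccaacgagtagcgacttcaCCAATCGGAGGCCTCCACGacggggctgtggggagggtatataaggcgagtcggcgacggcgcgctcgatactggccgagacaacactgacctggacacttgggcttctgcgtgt
Hsp90b1 (chr10:86705395-86705694, minus strand): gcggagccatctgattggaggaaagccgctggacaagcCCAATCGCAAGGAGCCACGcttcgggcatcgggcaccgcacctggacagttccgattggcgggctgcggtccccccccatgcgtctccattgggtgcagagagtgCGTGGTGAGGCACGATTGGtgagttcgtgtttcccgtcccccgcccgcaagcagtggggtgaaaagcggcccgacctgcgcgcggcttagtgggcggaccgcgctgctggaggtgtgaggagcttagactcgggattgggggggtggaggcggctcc
Creld2 (chr15:88819396-88819695, plus strand): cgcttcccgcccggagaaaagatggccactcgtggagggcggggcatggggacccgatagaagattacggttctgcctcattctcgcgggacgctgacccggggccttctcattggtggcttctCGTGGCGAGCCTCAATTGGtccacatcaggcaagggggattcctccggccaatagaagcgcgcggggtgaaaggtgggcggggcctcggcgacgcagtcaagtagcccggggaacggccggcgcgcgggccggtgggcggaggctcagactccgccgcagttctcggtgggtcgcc

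Hspa5, the master chaperone BiP whose window holds the element once, was at 368, 278, 255 and 305 FPKM in DKO chow and at 420 and 540 FPKM in DKO/hA1 chow (0.65 ± 0.28, unadjusted p = 0.0412). Hsp90b1, the chaperone GRP94 with the element on both strands, was at 298.5, 300.1, 231 and 240 FPKM and at 362 and 404 FPKM (0.50 ± 0.28). Creld2, a secreted folding factor with one element on the opposite strand, was at 36.2, 12.8, 18.7 and 22.5 FPKM and at 43.0 and 38.4 FPKM (0.89 ± 0.52). For these 3 genes both transgenic libraries lay above all 4 DKO libraries. Canx (0.22 ± 0.16) and Syvn1 (0.64 ± 0.30), which also carry the element, overlapped between the groups. The 8 members with the element had a median log2 fold change of 0.43, 6 of them without overlap, and the 20 without it a median of 0.31, 10 without overlap.

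Of the ATF4 branch, Atf3 was at 0.449, 0.238, 0.870 and 1.08 FPKM in DKO chow and at 3.68 and 5.66 FPKM in DKO/hA1 chow (1.78 ± 0.38, adjusted p = 0.212). Of the DKO chow libraries, DKO chow 4 alone reached 1 FPKM, so Atf3 was tested only because a transgenic library was high too. On Western diet Atf3 was also higher with the transgene (1.41 ± 0.36). Asns, which makes asparagine, was at 6.46, 5.14, 3.41 and 2.69 FPKM and at 13.9 and 15.8 FPKM (1.58 ± 0.47). Ddit3 (CHOP), a mediator of ER stress death, was at 8.98, 4.21, 8.68 and 10.9 FPKM and at 12.1 and 28.9 FPKM (1.15 ± 0.41). Among 20 immediate early genes, which respond within minutes to stimulation and to handling, 15 were positive, 7 without overlap (35%), at a median of 0.35 (0.16 against clock-matched libraries). Gadd45g, a DNA damage response gene, was at 13.8, 1.44, 4.19 and 11.1 FPKM and at 12.4 and 78.0 FPKM (2.23 ± 0.88), so a single transgenic library lay above DKO chow. Atf3 belongs to both lists, and the part of handling was not tested.

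Growth hormone feedback genes included a pair with wide gaps. Socs2, a suppressor of growth hormone signalling, was at 2.04, 1.53, 3.38 and 1.16 FPKM in DKO chow and at 10.4 and 12.3 FPKM in DKO/hA1 chow (2.07 ± 0.46, adjusted p = 0.248). Bcl6, a repressor in the same axis, was at 14.8, 20.9, 24.2 and 21.2 FPKM and at 4.00 and 4.20 FPKM (-2.06 ± 0.39, adjusted p = 0.129). Neither overlapped. On Western diet Socs2 had -0.19 ± 0.44 and Bcl6 0.21 ± 0.37. Over all 13 genes of the growth hormone and IGF axis the median was -0.23, and -0.08 without DKO/hA1 chow 2.

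Some matrix genes stood higher with the transgene on both diets. Of 29 stellate cell and matrix genes, 25 were positive on chow at a median of 0.31, 4 without overlap (13.8%, near the share over all genes), and the Western diet median was 0.52. The chow median of stellate cell and matrix genes was 0.11 without DKO/hA1 chow 1, 0.53 without DKO/hA1 chow 2, 0.19 without DKO chow 2 and 0.12 against clock-matched libraries. Col1a1, a chain of type I collagen, was at 1.35, 1.38, 1.44 and 3.38 FPKM in DKO chow and at 5.91 and 4.55 FPKM in DKO/hA1 chow (1.14 ± 0.32, adjusted p = 0.36). On Western diet it was at 4.41, 2.28 and 1.45 FPKM against 6.94, 8.27 and 5.21 FPKM (1.16 ± 0.30). Col5a2, of type V collagen, had 1.14 ± 0.21 on chow and 0.47 ± 0.20 on Western diet. The stellate cell markers Lrat (-0.01 ± 0.27), Reln (-0.11 ± 0.41), Des (0.14 ± 0.28) and Dcn (0.12 ± 0.28) were near 0.

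Markers of other cells moved with single libraries. Of 20 Kupffer cell and macrophage markers 18 were negative at a median of -0.59, but 1 did not overlap (5%). Their mean log2 level was 3.64 to 4.65 in DKO chow, and 4.33 and 3.24 in DKO/hA1 chow. Clec4f, specific to Kupffer cells, was at 90.1, 39.3, 87.6 and 78.1 FPKM and at 59.3 and 19.8 FPKM. Cd163, a haemoglobin scavenger receptor and the marker without overlap, was at 3.80, 0.936, 3.87 and 2.44 FPKM and at 0.708 and 0.269 FPKM (-1.28 ± 0.35). Endothelial markers had a median of -0.42, with Lyve1 at 0.92 ± 0.47 and Dnase1l3 at -0.83 ± 0.47. On Western diet the median was 0.53 for Kupffer cell and macrophage markers and 0.37 for endothelial markers. With DKO chow 2 and DKO/hA1 chow 2 left out, the median of Kupffer cell and macrophage markers was -0.18 and that of endothelial markers -0.06. That pair was chosen as lowest in endothelial genes, so the endothelial value is not a test. Without DKO/hA1 chow 2 alone they were 0.08 and 0.22, and without DKO/hA1 chow 1 they were -1.20 and -1.17. The adipose markers Plin1 and Lep and the pancreatic Prss1, Cpa1 and Pnlip were at 0, and Adipoq did not exceed 0.0525 FPKM. Cela1, listed as a pancreatic marker, was at 17.8 to 26.9 FPKM in DKO chow and at 7.83 and 8.44 FPKM in DKO/hA1 chow. Cela2a, the other pancreatic marker tested, went the opposite way (0.60 ± 0.20, higher without overlap). The part of these differences in the gene results was not tested.

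Acute phase genes had a median of 0.18, with 9 of 30 above DKO chow without overlap (30%) and 2 below. The median of acute phase proteins was -0.10 without DKO/hA1 chow 2, 0.36 without DKO/hA1 chow 1, 0.33 without DKO chow 1, 0.09 without DKO chow 3 and 0.07 without DKO chow 4, and on Western diet it was -0.80. Orm3, an orosomucoid, had -1.31 ± 1.06. Hamp2, a hepcidin gene, was at 14.9, 25.3, 16.7 and 23.6 FPKM and at 55.7 and 57.1 FPKM (1.45 ± 0.53, unadjusted p = 0.0198). Its close copy Hamp, the iron hormone, was at 1297 to 2251 FPKM and at 3252 and 3099 FPKM (0.88 ± 0.47). For both, reads shared between copies make the value uncertain. The 10 Dbp-arm clock genes were all negative at a median of -0.96. Dbp itself was at 53.2, 50.1, 0.36 and 1.18 FPKM in DKO chow and at 2.05 and 0.894 FPKM in DKO/hA1 chow. Against DKO chow 3 and 4 alone the list median was 0.10. Those libraries were chosen by the level of these same genes, so that value is not a test. Gm129, a clock repressor, had -1.97 ± 1.11.

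Both transgenic libraries and DKO chow 3 carry the number 57 in their labels, whose meaning is not stated. DKO Western diet 1 and DKO/hA1 Western diet 1 share the number 41. With the label number as a random effect, the correlation within a number was estimated at 0.568. The main fit takes all libraries as independent, including both transgenic chow libraries. Against DKO chow 3 alone, the mean of the transgenic libraries differed by 2.28 for Apoa1, 1.12 for Gpr110 and -1.39 for Dio1 on the log2 scale. The list medians on that reading were 0.53 for cholesterol synthesis, 0.48 for the unfolded protein response, -0.24 for fatty acid oxidation and -0.19 for cytochrome P450 genes. No test was made with 1 library on a side.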

How the data were processed

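RNA of 12 mouse liver samples was sequenced (Illumina Genome Analyzer IIx, 8 to 9 libraries a lane, RNA integrity number of at least 7, per the labels' protocols). Per the submitters' processing notes, TopHat 1.3.2, Bowtie 0.12.8, SAMtools 0.1.19 and Cuffdiff were used with build mm10. The Cuffdiff version and annotation are not given in the sources used here. The deposited table is named for counts but holds FPKM, with decimals in every column, so the planned fallback, limma on log2 FPKM, was used in place of a count test. Depth in reads is unknown, and intervals that need it are left out.

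Libraries were brought to one scale with trimmed means of their log ratios, without weights (0.3 trimmed by ratio, 0.05 by level), 1 was added, and limma 3.58.1 (R 4.3.3, trended, robust variance, two-sided) fitted the 4 groups over all 12 libraries with 8 residual degrees of freedom. Trf, at 0 in all DKO/hA1 Western diet libraries, was treated as missing there. P-values were adjusted by Benjamini and Hochberg over all genes tested. Small RNA genes were left out. Gene coordinates and promoters came from RefSeq GRCm38.p6, the coordinates of mm10. Python 3.11.15 with matplotlib 3.10.9 drew the figures. The fit was tested on simulated data.

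The genes compared, the lists and the markers were chosen with earlier results of these data known. Named genes were Apoa1, Apoe, all genes that passed, genes with the smallest unadjusted p without overlap and a group mean of at least 5 FPKM up to 8 a direction, and the 2 members with the largest log2 fold change in each list described. One gene that the rule names is not reported here. Other members named were chosen after their values were seen. The alternatives were 24 planned and 3 added after seeing the data.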

Additional observations from a re-analysis of the deposited data

Results flagged for a closer look

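Among 129 sets of 4 DKO chow values, 13 held a library standing apart from the others by the gap between it and its neighbour. The cutoff flags about 1 in 20 sets when values are independent and normally spread. FPKM values with zeros are not normally spread, and some sets share genes, so the 13 are not to be read as an excess. DKO chow 1 stood apart for S100g (0.452 FPKM), Cish (6.28 FPKM), and the mean log2 levels of neutrophil markers (3.501) and of the unfolded protein response (5.34). DKO chow 2 was low for C1qb (24.2 FPKM), Lyve1 (0.994 FPKM) and the means of Kupffer cell (3.64) and endothelial markers (2.52), and high for Slc10a2 (10.9 FPKM). DKO chow 4 was high for Apoa4 (176 FPKM), Col1a1 (3.38 FPKM) and the means of SREBP2 control (4.65) and MHC genes (7.11).

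The transgene difference in Mup5 and Rpl35 was not the same on both diets by a test of the difference itself, with log2 fold changes on chow that were -8.52 and -6.37 relative to those on Western diet. Both rest on the 2 DKO/hA1 chow libraries, the same in which 14 Mup rows at 0 in all 10 other libraries were above 0. Processing and diet cannot be told apart there, and both genes are uncertain.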

How the results depend on the processing

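Read numbers are unknown and the transgenic chow group has 2 libraries, which limits genes near 1 FPKM most. Of 9 genes called, 6 higher and 3 lower, the count was 3 with 0.1 added before the log2 (1 higher, 2 lower), 14 without a filter on level (11 and 3), 4 with a 5 FPKM filter (1 and 3), 48 (23 and 25) in the 6 chow libraries alone (6 of the 9 among them) and 34 (23 and 11) with the label number entered as a random effect (all 9 among them). Leaving out one library gave 2 (without DKO/hA1 chow 1, 0 higher and 2 lower) to 34 (without DKO/hA1 Western diet 3), with 18 without DKO/hA1 Western diet 1, 4 without DKO/hA1 chow 2 and 5 without DKO chow 3. Rpl35 passed in all 28 settings and Apoa1 in 23. Apoa1 missed without either DKO/hA1 chow library and under the 3 settings chosen after seeing the data. Those settings gave 7 calls (DKO chow 1 and 2, high in Dbp-arm genes, left out), 1 (DKO chow 4 and DKO/hA1 chow 1, highest in Defa24, left out) and 4 (both lowest in endothelial genes left out). With totals set equal the 9 calls were 7 higher and 2 lower, against 6 and 3. The replicate block, whose numbers do not pair the samples (correlations of -0.07 and 0.46 on chow), gave 13 calls, 6 higher and 7 lower. The interaction was called for 2 of the 9 genes, for 1 with equal totals and under each added setting, for 4 without a filter, and for 1 to 2 when leaving out one library. None of the genes called on chow passed on Western diet under any setting that gives that contrast. The unfolded protein response median of 0.36 ranged from 0.24 to 0.62 when leaving out one library (highest without DKO/hA1 chow 1). It was 0.59 with the Defa24 pair left out. The respiratory chain median of -0.19 was -0.28 against clock-matched libraries and -0.29 with the endothelial pair left out. It was -0.13 with the Defa24 pair left out and with equal totals, and -0.14 without DKO/hA1 chow 1. Direction reversed for Cyp7a1 (0.57), Arntl (-0.25) and Dbp (0.48) against clock-matched libraries, and for Apoe (0.066) with the endothelial pair left out. For Rpl34 it reversed without DKO/hA1 chow 1 (-1.44 to 0.22 when leaving out one library) and with the Defa24 pair left out (0.40). Dbp is among the genes by which the clock-matched libraries were chosen. The cause of these reversals was not tested.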
